A study of Mus musculus with 4 samples.

Results

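A set of 6 genes of blood vessel growth and guidance, out of 11138 genes measured, were followed on 4 arrays that compared cardiac endothelium of LPS-injected and saline-injected mice. They were the growth factor genes Pgf and Pdgfa, the signalling inhibitor Spry2, the Notch ligand gene Dll4 and the guidance receptor genes Nrp1 and Unc5b. They were taken by exact gene symbol from the platform annotation, and were selected on their LPS over saline ratios at 4 h and 24 h in these same arrays, so their values are given as a description and no test is attached to them. Each gene had 1 oligonucleotide, printed as 2 spots, which gave 8 values per gene.

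The study gave mice LPS, the endotoxin of Gram-negative bacteria, into the peritoneum and collected hearts 4 h or 24 h later. Mice injected with saline served as controls at each time. Amplified endothelial RNA of both treatments was hybridised together on 2-colour arrays of Operon long oligonucleotides, with 2 arrays per time. On the first array of a time the LPS RNA carried Cy5, and on the dye-reversed array it carried Cy3. They are called the Cy5 array and the Cy3 array here. Strain, genotype, age, LPS dose, the way the endothelium was isolated and the number of mice pooled are not stated in the sources used here, nor whether the reversed array used other animals. Each pair therefore counted as 1 replicate, and a ± is the SD of 2 arrays (n = 2 arrays), which holds array and dye error and leaves out the spread between mice. A small ± can also hide a wide gap between the 2 spots of an array.

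New vessels sprout from a leading endothelial tip cell that senses growth factors and guidance cues, while the cells behind it form the stalk. Vascular endothelial growth factor (VEGF) acts through the receptor Kdr with Nrp1 as a co-receptor, and placental growth factor, the product of Pgf, binds Flt1 and Nrp1 but not Kdr. Dll4 on the tip cell activates Notch on its neighbours and restrains them from sprouting. Sprouty proteins dampen signalling from growth factor receptors to the ERK kinases, and netrin and semaphorin receptors such as Unc5b and Nrp1 can carry repulsive cues.

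Values are log2 ratios of LPS over saline. The deposited table does not state its direction. It was read as Cy5 over Cy3, the sign of the Cy3 arrays was turned, and LPS over saline is a likely direction that rests on the dyes in the labels. Over oligonucleotides with close spots, deposited ratios of the 2 arrays correlated at -0.37 at 4 h and -0.50 at 24 h, but over all oligonucleotides at only -0.056 and -0.064. Of 19 measured genes known to be induced by LPS, 12 were at least 2-fold higher on both arrays of 4 h and 0 were lower, and at 24 h 8 were higher and 1, Tnfaip3, was lower. This list was chosen with earlier results known. Had the table already been turned alike, the 5 members described as 2-fold at 4 h would each lie on opposite sides on the 2 arrays. The members were picked on turned ratios, so they are no evidence for the turning. Had it held Cy3 over Cy5, higher would read lower throughout. Spots of 1 oligonucleotide differed by a median of 0.28 to 0.52 log2 units within an array. The table holds no intensities, so a weak spot could not be told from a strong one, and no level of any gene is known.

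At 4 h, 5 of the 6 genes were at least 2-fold from saline in the same direction on both arrays, which is termed called, against 3.25% of all genes. The share describes the arrays, and nothing is read from it, since these ratios were in view when the genes were picked. Pgf and Pdgfa were higher, and Spry2, Nrp1 and Unc5b were lower. In a bulk isolate, fewer cells of a type and less RNA per cell cannot be told apart. Where all spots had to be 2-fold on both arrays, 4 of the 6 genes passed, against 1.57% of all genes, and Spry2 was the called gene that did not.

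Pgf encodes placental growth factor, a VEGF family ligand. Its spots at 4 h read 3.72 and 3.64 on the Cy5 array and 2.62 and 2.46 on the Cy3 array. The mean was 3.11 ± 0.80, 8.62-fold above saline and rank 43 from the top of all genes. At 24 h the spots read 0.25 and 0.04 on the Cy5 array and 2.74 and 2.83 on the Cy3 array. The spots agreed within each array while the arrays of 24 h disagreed. The Cy5 array was near 0 and the Cy3 array was at 2.79, between the arrays of 4 h at 3.68 and 2.54. The mean at 24 h of 1.46 ± 1.87 thus rests on 1 array and was not a call.

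Pdgfa encodes the A chain of platelet-derived growth factor, which signals through Pdgfra on mesenchymal cells. At 4 h its spots read 1.85 and 2.56 on the Cy5 array and 1.52 and 1.53 on the Cy3 array, a mean of 1.86 ± 0.48 or 3.64-fold above saline. At 24 h they read 0.31 and 0.27 on the Cy5 array and 0.78 and 0.61 on the Cy3 array, a mean of 0.49 ± 0.29. All 8 spots lay above 0, and each spot of 4 h lay above each spot of 24 h.

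Spry2 encodes Sprouty2, an inhibitor of receptor tyrosine kinase signalling. It had the lowest mean of the 6 at 4 h, -3.41 ± 2.23, rank 12 from the bottom of all genes, and also the widest SD. Its spots read -6.32 and -3.66 on the Cy5 array and -0.71 and -2.96 on the Cy3 array. All 4 were below 0, but spots of the same array lay 2.66 and 2.25 log2 units apart, gaps wider than those of 87.6% and 92.9% of oligonucleotides on these arrays. At 24 h the Cy5 array was at 0 (-0.08 and 0.04) and the Cy3 array was lower (-1.13 and -1.83), for a mean of -0.75 ± 1.04 that was not a call.

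Dll4, the Notch ligand of tip cells and arteries, was the 1 member of 6 called at 24 h, where 7.00% of all genes were called. Its spots at 24 h read -0.93 and -1.47 on the Cy5 array and -1.55 and -1.23 on the Cy3 array. The mean was -1.30 ± 0.13, 2.46-fold below saline. At 4 h it lay on both sides of 0, with 0.44 and 0.89 on the Cy5 array and -0.15 and -0.38 on the Cy3 array, a mean of 0.20 ± 0.66. All spots of 24 h lay below those of 4 h. With all spots required to be 2-fold, 0 of the 6 genes passed at 24 h, against 3.65% of all genes, since 1 spot of Dll4 read -0.93. The call at 24 h stood close to its limit of 1 log2 unit: with arrays scaled to a common spread the Cy5 array read -0.94, with quantile normalization -0.87, and under either the gene was not called.

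Nrp1 encodes neuropilin-1, a co-receptor for VEGF and class 3 semaphorins. Its spots at 4 h read -2.16 and -2.22 on the Cy5 array and -2.91 and -3.02 on the Cy3 array, a mean of -2.58 ± 0.55 or 5.96-fold below saline. As deposited, before any sign was turned, these were -2.17 and -2.23 on the Cy5 array and 2.91 and 3.02 on the Cy3 array. Any called gene has opposite deposited signs on the 2 arrays, so nothing is read from them. At 24 h Nrp1 read 0.16 and 0.06 on the Cy5 array and -0.44 and -0.80 on the Cy3 array, a mean of -0.26 ± 0.52. Both arrays of 24 h lay within 2-fold of saline and above both arrays of 4 h.

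Unc5b encodes a netrin receptor of endothelial tip cells. At 4 h its spots were the closest to one another across arrays of the 6 genes, -3.003 and -2.902 on the Cy5 array and -2.71 and -2.55 on the Cy3 array, a mean of -2.79 ± 0.23 or 6.92-fold below saline. At 24 h they scattered around 0, with 1.34 and 0.22 on the Cy5 array and -1.86 and -0.06 on the Cy3 array, a mean of -0.09 ± 1.24. The last of these was a ratio of exactly 1 in the deposited table, and whether such ratios were measured or filled in is unknown. Without it the mean of 24 h was -0.54, from 0.80 on the Cy5 array and -1.89 on the Cy3 array. The arrays of 4 h then read -2.94 and -2.61, so the Cy3 arrays of the 2 times lay less than 2-fold apart.

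**Figure D1:**
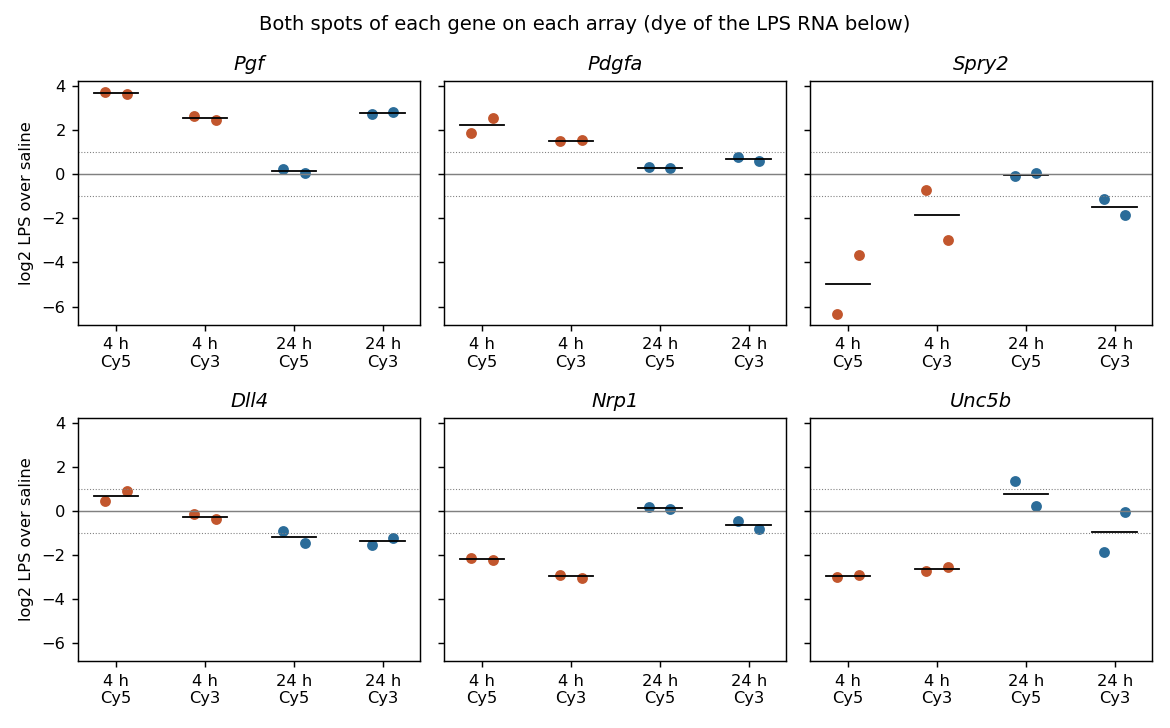
Log2 LPS over saline of both spots of each gene on each array (points, orange for 4 h and blue for 24 h) with the array's mean (bar) and dotted lines at 2-fold. Pgf and Pdgfa sit above the upper line on both arrays of 4 h, Nrp1 and Unc5b below the lower line, and the 2 spots of Spry2 are far apart at 4 h.

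The same genes were set against all others on the dye-reversed arrays. At 4 h 362 genes of the whole array were called (251 higher, 111 lower) and 158 were 2-fold in opposite directions, while at 24 h 780 were called and 411 lay in opposite directions. With quantile normalization 561 were called at 4 h, 328 higher and 233 lower. The 5 members called at 4 h were called with quantile normalization and without centring, as were 362 and 358 of the 362 genes called. A call needs both arrays, so each array of 4 h alone calls them by construction. Of all genes, 5.04% were called with quantile normalization, 3.23% without centring, 12.7% on the Cy3 array alone and 20.8% on the Cy5 array alone.

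**Figure D2:**
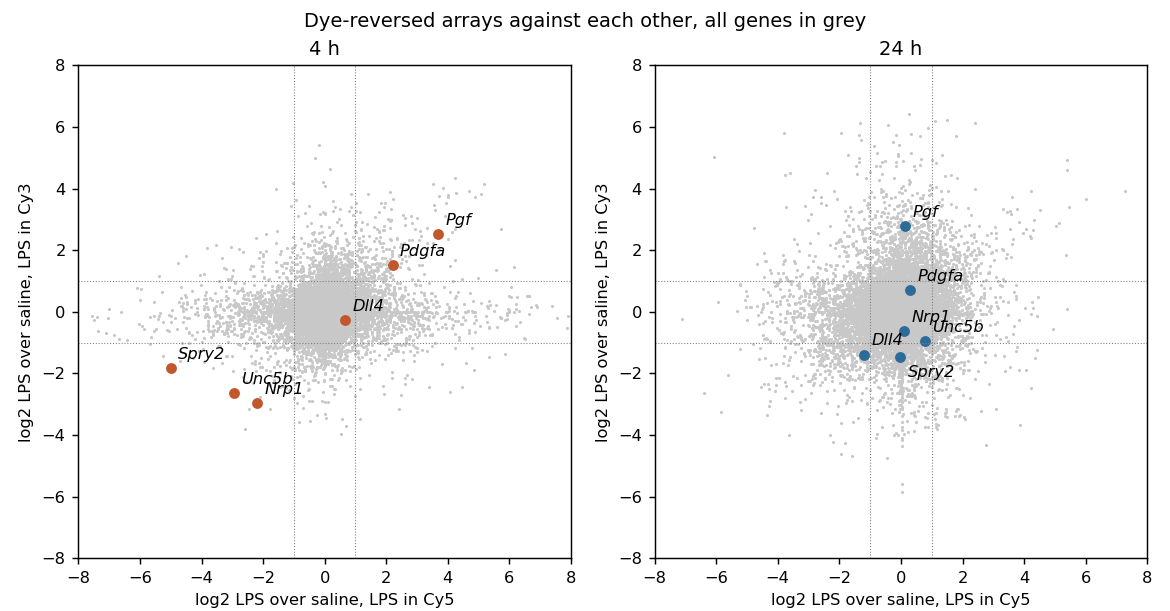
Log2 LPS over saline on the Cy5 array (horizontal) and the Cy3 array (vertical) of each time, all 11138 genes in grey except 4 that lie beyond 8 log2 units, and the 6 genes in colour. At 4 h, Pgf and Pdgfa lie in the upper right corner and Spry2, Unc5b and Nrp1 in the lower left corner beyond the dotted 2-fold lines, and at 24 h Dll4 is the 1 of the 6 in a corner.

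The response at 24 h was then compared with that at 4 h. A gene was taken to differ where the means lay at least 1 log2 unit apart and both arrays of a time lay above both of the other. This held for 5 of the 6 genes and for 19.8% of all genes. Both times were in view when the genes were picked, and each time is 1 replicate, so the differences carry no test. Spry2, Nrp1 and Unc5b were higher at 24 h than at 4 h, by 2.66, 2.32 and 2.70 log2 units, against 9.43% of all genes that were higher at 24 h. Pdgfa and Dll4 were lower at 24 h, with differences of -1.37 and -1.497, against 10.3% of all genes.

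A dye effect of an oligonucleotide cancels when arrays of the same dye are compared. Within the Cy5 arrays and within the Cy3 arrays, the difference of Nrp1 was 2.30 and 2.34. For Unc5b it was 3.74 and 1.67, for Pdgfa -1.91 and -0.83 and for Dll4 -1.87 and -1.12. For each gene that met the criterion, the same direction in both dyes follows from it, so only the sizes are described. Nrp1 had nearly the same size in both. Within the Cy3 arrays alone 3 of the 6 genes (Dll4, Nrp1 and Unc5b) differed by at least 2-fold, as did 34.8% of all genes. For Unc5b this rests on its spot with a ratio of exactly 1. Without that spot its Cy3 arrays read -2.61 at 4 h and -1.89 at 24 h, less than 2-fold apart. For Spry2 the difference was 4.97 within the Cy5 arrays and 0.35 within the Cy3 arrays, so almost all of it came from the Cy5 arrays. Pgf differed by -3.53 within the Cy5 arrays and by 0.25 within the Cy3 arrays, and its arrays overlapped between the times. With quantile normalization or a common spread its arrays did not overlap, and all 6 genes then met the criterion, as did 19.2% of all genes with quantile normalization and 18.5% with a common spread.

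**Figure D3:**
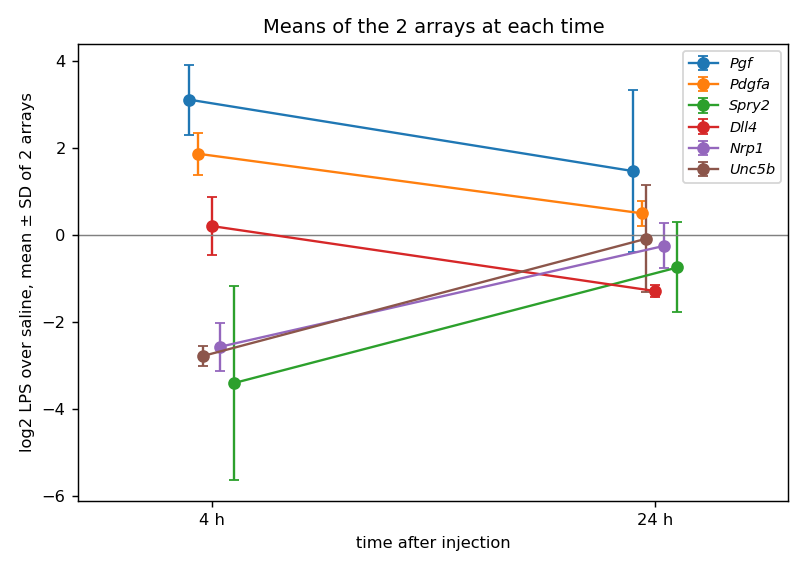
Mean log2 LPS over saline at 4 h and 24 h, with error bars of 1 SD of the 2 arrays of a time and lines joining the means of a gene. Nrp1 and Unc5b move from below -2 at 4 h to near 0 at 24 h, Pdgfa moves down towards 0, Dll4 moves from near 0 to -1.30, and the bars of Pgf at 24 h and Spry2 at 4 h are wide.

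Nrp1 and Unc5b were among each other's nearest genes over the 4 arrays, but both were selected on these same ratios. By Euclidean distance over the 4 log2 ratios, Unc5b was the third closest gene to Nrp1 of all genes and Nrp1 the closest to Unc5b, at a distance of 1.13. The other genes nearest to Nrp1 were Pagr1a at 0.95 and Msmo1 at 1.06, and those nearest to Unc5b were Msmo1 at 1.17 and Cbx6 at 1.28. Pgf was nearest to Bcat2 at 0.55, then to Cebpd at 1.33 and Cabcoco1 at 1.33. Pdgfa had Cmpk1 at 0.42, Rpl22l1 at 0.56 and Mitd1 at 0.60, and Dll4 had Ccr1l1, Upp2 and Klrg1, each between 0.33 and 0.34. Spry2 had no gene as near, with Nudt17 at 1.43, Enpp3 at 1.53 and Abtb1 between them. The distance of 1.13 between Nrp1 and Unc5b was wider than those from Pgf, Pdgfa and Dll4 to their closest genes. It also includes the spot of Unc5b at 24 h with a ratio of exactly 1. With 4 arrays of 2 RNA pairs, likeness here means only similar ratios.

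The promoters of Nrp1 and Unc5b are shown because these genes were lower together at 4 h, and those of Pgf and Pdgfa because they were higher together. RefSeq sequences of assembly GRCm38.p6 were used, 300 bases each, from 250 bases before to 50 after an annotated start, 5′ to 3′ on the gene's strand. The builds of the arrays are not given, and the sequences were matched by gene identifier. All 6 genes matched, with 8 promoters in all, since Pgf and Pdgfa have 2 annotated starts each. Capitals mark a match to a motif searched on both strands. The windows are chr8:128358823-128359122 on the plus strand for Nrp1, and on the minus strand chr10:60831532-60831831 for Unc5b, chr12:85175933-85176232 for Pgf and chr5:138994232-138994531 for Pdgfa, the last pair being the starts that hold a match.
Nrp1: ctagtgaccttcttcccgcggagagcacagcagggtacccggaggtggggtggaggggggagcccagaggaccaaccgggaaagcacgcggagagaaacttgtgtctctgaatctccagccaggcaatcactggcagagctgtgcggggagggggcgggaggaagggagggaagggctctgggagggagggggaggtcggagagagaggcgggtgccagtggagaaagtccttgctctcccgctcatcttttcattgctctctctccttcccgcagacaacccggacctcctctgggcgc
Unc5b: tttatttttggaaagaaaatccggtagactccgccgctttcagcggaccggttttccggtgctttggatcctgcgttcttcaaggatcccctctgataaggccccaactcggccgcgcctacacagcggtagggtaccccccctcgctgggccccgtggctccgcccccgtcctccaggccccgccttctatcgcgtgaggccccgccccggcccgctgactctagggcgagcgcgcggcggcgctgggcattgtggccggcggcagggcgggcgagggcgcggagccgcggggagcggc
Pgf: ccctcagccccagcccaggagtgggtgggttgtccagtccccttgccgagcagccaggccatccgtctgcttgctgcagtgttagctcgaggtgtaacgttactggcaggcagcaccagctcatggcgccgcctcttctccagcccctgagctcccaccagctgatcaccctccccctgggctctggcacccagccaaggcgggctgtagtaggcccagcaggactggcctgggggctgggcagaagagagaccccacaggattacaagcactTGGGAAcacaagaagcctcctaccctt
Pdgfa: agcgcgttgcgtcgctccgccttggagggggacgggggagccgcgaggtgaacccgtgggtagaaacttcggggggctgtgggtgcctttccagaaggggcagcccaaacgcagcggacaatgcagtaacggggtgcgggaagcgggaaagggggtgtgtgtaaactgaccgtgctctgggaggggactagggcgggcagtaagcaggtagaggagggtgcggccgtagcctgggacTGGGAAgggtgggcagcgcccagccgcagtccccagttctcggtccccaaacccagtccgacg
The motifs were the Notch effector site RBPJ (TGGGAA), AP-1 (TGANTCA), the hypoxia response core (ACGTG), CRE (TGACGTCA) and the kB consensus, which is bound by NF-kB. The 2 matches found were both TGGGAA, in Pgf at bases 24 to 29 after the start and in Pdgfa at bases 13 to 8 before it. TGGGAA occurs in 25.6% of all 32851 promoters of the table, AP-1 in 7.81%, ACGTG in 19.6%, TGACGTCA in 1.79% and the kB consensus in 4.51%. The 8 promoters held no match to the other motifs, and those of Spry2, Dll4, Nrp1 and Unc5b held none at all, which says only that these letters are not in these windows. Their base composition was rich in G and C, from 62.7% in Spry2 to 73.3% at the other start of Pdgfa, against a median of 52.7% over all promoters.

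The partners and pathways of the 6 genes were read from 11 lists, which were chosen with earlier results known. Without the 6 genes, 118 listed genes were measured. At 4 h 2 of these were higher and 2 lower, where 2.25% of all genes were higher and 0.997% lower, and at 24 h 3 were higher and 5 lower, where the shares were 3.48% and 3.52%. The median over these listed genes was -0.05 at 4 h and -0.08 at 24 h, beside -0.02 over all genes at each time.

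Among VEGF ligands and receptors, 9 of 10 were measured, and beside Pgf and Nrp1 the receptor gene Kdr was called. Kdr, which carries most of the VEGF signal in endothelium, read -1.36 and -2.42 on the arrays of 4 h and 2.55 and 1.87 on those of 24 h. Like Nrp1 it was low on both arrays of 4 h, but at 24 h it lay above saline, where Nrp1 did not. Flt1, the receptor of placental growth factor, was not called, at -0.22 ± 0.30 at 4 h and -0.77 ± 1.25 at 24 h. The ligand genes Vegfa at 0.22 ± 0.07, Vegfb at -0.06 ± 0.13 and Vegfc at -0.54 ± 0.58 were not called at 4 h, and Vegfd stood at -0.96 ± 0.18. The lymphatic receptor gene Flt4 was at 0.28 ± 0.04 at 4 h and -0.63 ± 1.55 at 24 h. Its mean at 4 h hid spots of 1.18 and -0.68 on the Cy5 array. Pgf was thus the 1 ligand of this family called at either time.

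All 6 listed genes of the PDGF family were measured, and Pdgfa was the 1 called. Its receptor Pdgfra stood at -0.37 ± 0.15 at 4 h and -0.27 ± 0.36 at 24 h. Pdgfb, which endothelium makes to recruit pericytes, was at -0.13 ± 0.56 and 0.21 ± 0.23, and its receptor Pdgfrb at -0.04 ± 0.44 and -0.79 ± 0.60. Of 10 measured genes of the Sprouty and feedback list, Spry2 was the 1 called at 4 h and none was at 24 h. The related inhibitors Spry1 at -0.09 ± 0.02 and Spry4 at 0.46 ± 0.33 were within 2-fold of saline at 4 h. At 24 h Spry1 was at 1.29 ± 1.32, a mean carried by a single spot of 4.85 beside 3 spots from -0.40 to 0.44.

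Of 25 measured Notch genes, Psen2 was called higher at both times, at 1.504 ± 0.27 and 1.99 ± 0.54, and Dll4 lower at 24 h. Psen2 encodes presenilin 2, a catalytic subunit of the gamma-secretase that releases the Notch intracellular domain, and all its spots were 2-fold on all 4 arrays. The receptor genes Notch1 at -0.44 ± 0.10 and Notch4 at 0.33 ± 0.35 were not called at 24 h, nor was the ligand gene Jag1 at -0.79 ± 1.32. The Notch target genes gave no common direction at 24 h, with Hes1 at -0.73 ± 0.59, Hey1 at 0.14 ± 1.21, Hey2 at -0.20 ± 0.78 and Nrarp at 0.03 ± 0.03. At 4 h Hey2 read 5.51 on the Cy5 array and 0.04 on the Cy3 array, Hes1 was at 0.61 ± 1.01, Hey1 at -0.67 ± 0.02 and Nrarp at -0.92 ± 0.95. The mean of Hey1 hid spots of -1.23 and -0.13 on its Cy5 array.

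Among netrins and their receptors 8 of 16 were measured. Unc5b was called lower at 4 h, and the ligand genes Ntn3 at -2.09 ± 1.22 and Ntn4 at -1.09 ± 0.02 were lower at 24 h, when Unc5b was not. The mean of Ntn4 hid spots of -0.26 and -1.93 on its Cy5 array. Ntn1, the best-known netrin, was at -0.44 ± 0.14 and -0.05 ± 0.66, and Robo4, an endothelial receptor that binds Unc5b, at 0.43 ± 0.01 and 1.00 ± 0.05. The mean of Robo4 at 24 h hid spots of 0.48 and 1.60 on the Cy5 array. Of 22 semaphorins and plexins 0 were called at 4 h, and Sema4d at -2.24 ± 0.02 and Sema4f at -2.77 ± 0.85 were lower at 24 h. Sema3a, a ligand of neuropilin-1, was at 1.02 ± 0.77 at 4 h and 0.18 ± 0.07 at 24 h, and Plxna1, which signals with neuropilin-1, at -0.09 ± 0.31 at 4 h and 0.04 on both arrays of 24 h. Of the partners, Nrp2, Flrt2, Plxnd1 and Spry3 were not analysed here. None of the 6 Slit and Robo, 19 ephrin and Eph receptor or 5 angiopoietin and Tie genes was called at either time. Robo4 stood at the limit at 24 h, with 1.04 on the Cy5 array and 0.96 on the Cy3 array. Without centring it was called, at a mean of 1.02.

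Of 10 measured tip cell genes outside the 6, 2 were called lower at 4 h and 0 higher, where 0.997% of all genes were lower. These were Kdr and Esm1, which encodes the secreted proteoglycan endocan. Nrp1 and Unc5b, lower at 4 h as well, also belong to the list of 13 measured genes, but they were selected on these ratios and add nothing to that count. Esm1 read -1.15 and -2.53 on the 2 arrays, a mean of -1.84 ± 0.97. The median over the 10 genes was -0.07, with -0.42 on the Cy5 array and 0.24 on the Cy3 array, and Pdgfb, Flt4, Angpt2 and Cxcr4 of this list were not called at 4 h. At 24 h 1 of the 10, Kdr, was higher and 0 were lower, and the median was 0.40. Of 8 measured inhibitors of angiogenesis, Cxcl10 was higher at 4 h at 2.37 ± 0.04, and at 24 h Timp3 at 3.30 ± 1.29 was higher and Col18a1, the source of endostatin, lower at -2.29 ± 0.82.

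**Figure D4:**
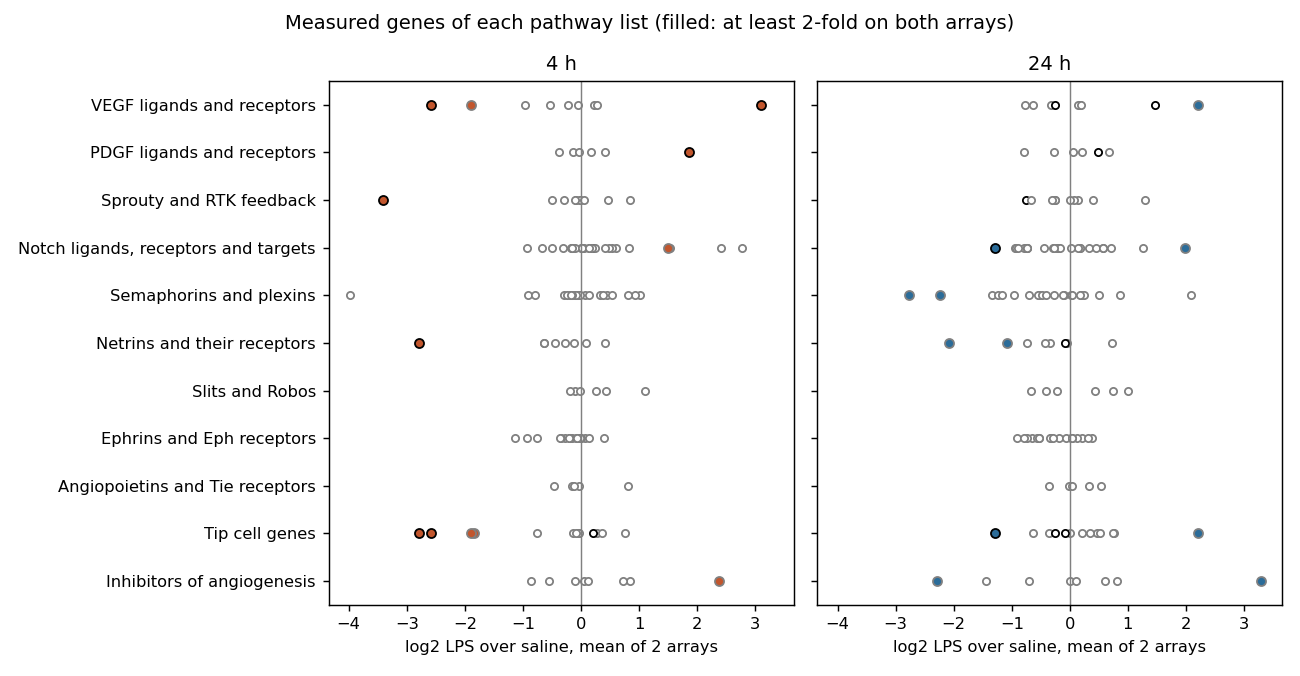
Mean log2 LPS over saline of the measured genes of each pathway list at 4 h and 24 h, filled where at least 2-fold on both arrays and outlined in black for the 6 genes. Most genes lie within 1 log2 unit of 0, and of the filled low points of the tip cell list at 4 h, Nrp1 and Unc5b were selected on these ratios and the other two are Kdr and Esm1.

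Markers of endothelium and of other cell types were read on the same arrays. Ratios cannot show whether a marker is present, so the labelled tissue could not be checked by levels. Of 13 measured endothelial markers, Cldn5 was higher and Kdr and Eng lower at 4 h, and Kdr and Eng were higher at 24 h. The median of these markers was 0.01 at 4 h and 0.54 at 24 h. Their means at 4 h ran from -1.89 in Kdr to 1.29 in Cldn5. At 4 h the median was -0.25 over 14 cardiomyocyte, -0.02 over 9 smooth muscle and pericyte, -0.09 over 8 fibroblast, -0.16 over 8 monocyte and macrophage, -0.32 over 9 neutrophil and 0.05 over 8 lymphocyte markers. Among these lists Actg2, at 2.18 ± 0.58, was the 1 gene called at 4 h. At 24 h, when Dll4 was lower, the neutrophil genes S100a8 at 2.58 ± 1.17 and S100a9 at 1.55 ± 0.08 and Vim at 2.04 ± 0.48 were higher, and Ngp at -1.62 ± 0.82, Ryr2 at -1.40 ± 0.11 and Actg2 at -2.42 ± 1.47 were lower. In the same order, the medians of the 6 lists of other cells were -0.17, -0.35, -0.15, -0.42, -0.63 and -0.26 at 24 h. The part of other cells in the values of the 6 genes was not tested.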

How the data were processed

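RNA of cardiac endothelium was measured on 4 arrays with 2 colours, 2 per time. The deposited values are log2 ratios of the 2 channels, 32448 spots to an array, with a median of 3e-07 on all 4 arrays. How scanner signals became ratios (background, dye normalization, spot filters) is not stated in the labels, so weak spots may carry extreme ratios. Between 10.2% and 13.4% of spots held a ratio of exactly 1 (within 1e-06 of 0).

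The sign of arrays with LPS in Cy3 was turned. Ratios were averaged over the 2 adjacent spots of an oligonucleotide and over a gene's oligonucleotides, and the median gene of an array was set to 0. Symbols came from the platform annotation, and 24344 spots (75.0%) had 1 symbol. A call needed both arrays of the time to be at least 1 log2 unit from 0 in the same direction. Each pair of arrays was 1 replicate, so the calls and the differences between times rest on no p-value. As an alternative, limma 3.58.1 took the arrays as separate samples, with and without dye orientation as a block, and the script was tested on simulated data.

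The named genes were the 6 genes, list genes called at either time, direct partners of the 6, and for each of the 6 the 3 genes nearest by distance. Markers and LPS-induced genes are named only as checks of tissue and direction, and the list genes Angpt2 and Cxcr4 were named after their values were seen. The members and lists were chosen with earlier results of these data known. The number of arrays limits the precision. Python 3.11.15 and R 4.3.3 were used.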

Additional observations from a re-analysis of the deposited data

Results flagged for a closer look

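The 64 genes looked at were the named genes, the markers called at either time and Tnfaip3. In 11 of them both arrays of 4 h lay on one side of 0 and both arrays of 24 h on the other. The difference between the times was not tested for single genes. Kdr stood at -1.89 at 4 h and 2.21 at 24 h, Eng at -1.87 and 3.91 and Actg2 at 2.18 and -2.42, and these 3 were 2-fold on all 4 arrays. Cldn5 was at 1.29 and -0.66, Esm1 at -1.84 and 0.46, and Pagr1a, a gene near Nrp1 by distance, at -2.44 and 0.21. S100a8 was at -0.13 and 2.58 and S100a9 at -0.32 and 1.55. Vegfd was at -0.96 and 0.19, with spots of 0.00 and -2.17 on its Cy3 array of 4 h. Nrarp was at -0.92 and 0.026. Spry1 was at -0.094 and 1.29, where 1 spot of 4.85 set the value of 24 h. None of the 6 genes of the report showed such a pattern. The share of all genes with such a pattern was not counted, so nothing is read from this.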

How the results depend on the processing

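The 5 calls among the 6 genes at 4 h were the same without centring, with quantile normalization and with arrays scaled to a common spread. Of all 362 genes called at 4 h, 358, 362 and 362 kept their call in these settings, so nothing is read from it. The 5 calls also stood without ratios of exactly 1 and with the oligonucleotide of the closest spots, where 385 and 371 of all genes were called. Neither of these settings removed a spot of the 6 genes at 4 h. At 1.5-fold and on either array alone the calls follow from their definition. At 3-fold, 4 were called, without Pdgfa, as were 126 of all 11138 genes. Only 4 of the 6 genes had close spots on both arrays of 4 h, and 3 of these were called. Of all 5039 genes with close spots at 4 h, 157 were called. At 24 h 3 had them and 0 were called, against 377 of 3607 genes, while Dll4 did not have them and so gave no value. With the sign of the Cy3 arrays not turned, 0 of the 6 were called at 4 h and 0 at 24 h. The call of Dll4 at 24 h was also lost, leaving 0, with quantile normalization, a common spread, 3-fold, or all spots 2-fold. Of all 11138 genes, these settings called 525, 424, 235 and 406 at 24 h. The Cy5 array of 24 h alone called 1 of the 6 genes and 3408 of all 11138. The Cy3 array of 24 h alone called 3 of the 6 and 3239 of all 11138.

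Over all genes, the count at 4 h was 561 with quantile normalization, 557 with a common spread, 157 with close spots only, 175 with all spots 2-fold, 941 at 1.5-fold, 126 at 3-fold and 158 with the sign not turned. At 24 h it was 525 with quantile normalization, 424 with a common spread, 377 with close spots and 406 with all spots 2-fold. It was 1808 at 1.5-fold, 235 at 3-fold and 411 with the sign not turned. Single arrays called 1414 to 2317 genes at 4 h and 3239 to 3408 at 24 h. Between the times the count went from 2201 to 464 with close spots and 1298 with the sign not turned. It was 4270 within the Cy5 arrays and 3873 within the Cy3 arrays, and ran from 2968 to 4001 without 1 array. Close spots were present for 5039 genes at 4 h, 3607 at 24 h and 2108 at both times. The counts with close spots are out of these genes and the other counts out of 11138. Single arrays and single dyes ask less of a gene by construction. With the arrays as separate samples, limma called 0 genes at an adjusted p under 0.05 for 4 h, 24 h and their difference, with 475, 1126 and 638 at an unadjusted p under 0.05. The labels give the arrays no replicate numbers, so they could be paired only by dye. With dye orientation as a block, an alternative chosen after seeing the data that leaves 1 residual degree of freedom, limma also called 0 genes for each, with 721, 1240 and 813 at an unadjusted p under 0.05.

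A change of sign was counted as a reversal only where the reported value was called, and such reversals arose only with the sign not turned. They were 0.39 for Nrp1, 0.53 for Kdr, 0.69 for Esm1 and -0.029 for Cxcl10 at 4 h, and 0.092 for Dll4, -0.38 for Psen2 and 0.013 for Sema4d at 24 h. The difference 24 h minus 4 h of Nrp1 was -0.022. Values not called changed sign elsewhere too: Dll4 at 4 h was -0.26 without the Cy5 array, Nrp1 at 24 h was 0.11 without the Cy3 array, and the difference of Pgf was 0.25 within the Cy3 arrays. Without intensities, the signal over background behind a ratio is unknown.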
